A study of Mus musculus with 50 samples.

Results

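Adult mice of 8 and 18 months were compared in the gastrocnemius, the large calf muscle, at ages that the study places before the sarcopenic phases. The comparison took the 8 libraries of 18 months-old mice against the 8 libraries of 8 months-old mice, which are 16 of the 50 mice sequenced, and the ages were read from the sample labels. The older mice (22 and 24 months, n = 8 each, and 26 and 28 months, n = 9 each) were used to follow each changed gene into later life. All were male C57BL/6JRj mice, an inbred strain, bought from an aging colony, without genetic or drug treatment, and each library came from the muscle of 1 mouse. Mice of both compared ages had been moved to a purified diet, AIN-93M, for at least 2 months before the endpoint, whereas the older mice had been on it since the age of 18 to 19 months. A level at 18 months that differs from those of the later ages therefore cannot be told apart from a difference in diet history or in the purchased cohort. The mice are different animals at each age, so a difference between 18 and 8 months cannot be told apart from one between purchased cohorts either. Ill or tumor-bearing mice had been excluded.

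Skeletal muscle is built of long multinucleated fibers whose RNA is dominated by contractile and energy genes, such as myosins, troponins, the calcium pump of the sarcoplasmic reticulum and muscle creatine kinase. Between the fibers lie fibroblasts, vessels, nerve endings, satellite cells and resident macrophages, which contribute a smaller share of the RNA. Bulk RNA reads the sum of all of these, so that more cells of a type and more RNA per cell cannot be told apart. The tissue label was matched by its markers: the 10 fast fibre genes, led by Myh4, the myosin of the fastest mouse fibers, summed to between 141800 and 188500 CPM (counts scaled to a library of 1000000 counts) at 8 months (median 159000) and between 142800 and 190600 CPM at 18 months (median 156900).

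The depth was similar in both ages. Total counts lay between 15042861 and 20515435 per mouse at 8 months (median 18400000) and between 13758961 and 21267375 at 18 months (median 16600000), a difference within the spread of the mice (exact permutation test, two-sided, p = 0.137). In a PCA of these 16 mice alone, PC1 carried 28.6% of the variance and placed the 8 months-old mice between -27.9 and 25.4 and the 18 months-old mice between -29.8 and 15.5. The mean coordinate differed by 1.29 (exact permutation test, two-sided, p = 0.866), and on PC2, with 12.7% of the variance, by -4.98 (exact permutation test, p = 0.343). The mice of 1 age were also about equally alike at both ages. The median absolute log2 deviation of a mouse from the mean of the other mice of its age was 0.160 ± 0.0530 at 8 months and 0.158 ± 0.0514 at 18 months (SD, n = 8 each; exact permutation test, two-sided, p = 0.960).

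Few genes separated the 2 ages. The test took 12586 genes that reached 1 CPM in 8 or more of the 50 mice. Of these, 9 passed FDR 0.01, which is 0.0715% of the genes tested, 5 of them higher (0.0397%) and 4 lower (0.0318%) at 18 months. Higher were Amy1, Mpzl3, Irf7, Ifit1 and the gene model Gm7609, and lower were Ube2c, Rabep2 and the transcripts A930016O22Rik and 9430073C21Rik. The 3 gene models were named because the count is small, after their values were seen. At an unadjusted p under 0.05 there were 460 genes (3.65%), 264 of them higher (2.1%) and 196 lower (1.56%), and at FDR 0.05 there were 10 (0.0795%). The median log2 fold change over all genes was -0.00172, and 90% of the genes lay between -0.258 and 0.241. For comparison, 5 genes passed against 8 months at 22 months (0.0397%), 77 at 24 months (0.612%), 2314 at 26 months (18.4%) and 4988 at 28 months (39.6%). These later comparisons share the 8 months-old mice with the comparison of 18 against 8 months.

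**Figure D1:**
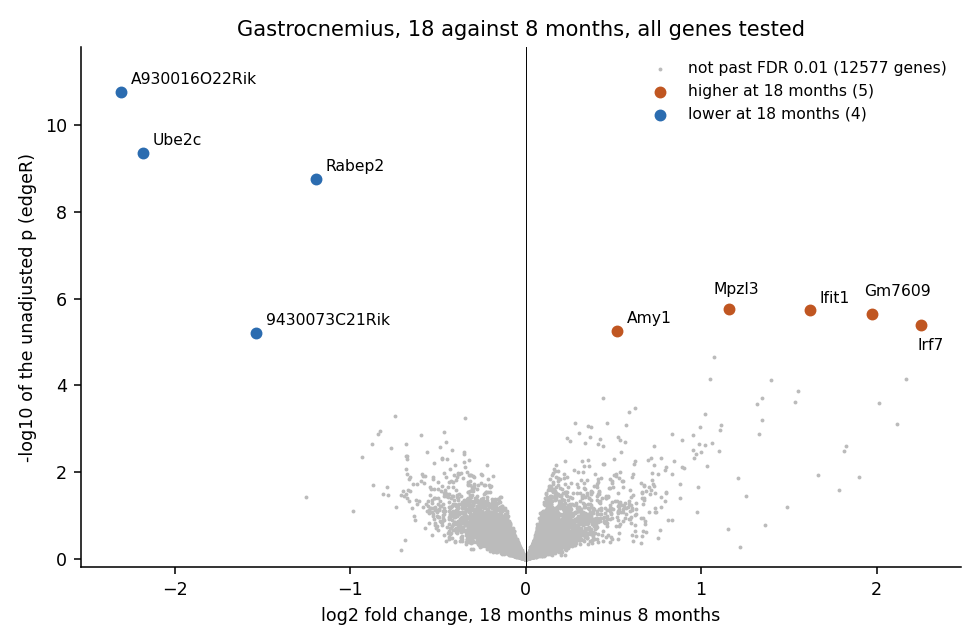
Log2 fold change of each of the 12586 genes tested (18 months minus 8 months, x axis) against -log10 of its unadjusted p from edgeR (y axis). The 5 genes higher and the 4 genes lower past FDR 0.01 are colored and named, and 3 of the lower genes stand above all others on the y axis.

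Followed into later life, the 9 genes fell into 3 kinds. Amy1 and Gm7609 stayed higher than at 8 months past FDR 0.01 at all 4 later ages. Mpzl3, Ube2c, Rabep2 and A930016O22Rik kept their direction past FDR 0.01 at 2 of the later ages, 26 and 28 months. Irf7, Ifit1 and 9430073C21Rik passed at none of them, and no gene passed with the opposite sign. Because only 5 genes passed at 22 months, the fold changes at each age are given beside this classification. Each later age was compared with the same 8 months-old mice by which the 9 genes were chosen. That choice favors a kept direction, so the classification is not separate support for a lasting change.

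Amy1 encodes the amylase of saliva and liver, an enzyme that cleaves starch and glycogen, and lies on chromosome 3 from 113555710 to 113606699 (GRCm38, minus strand). Its level was 43.8 to 65.7 CPM at 8 months (median 46.2) and at 59.2 to 81.4 CPM at 18 months (median 76.6). All but 1 of the 18 months-old mice lay above the highest 8 months-old mouse. The log2 fold change was 0.52 ± 0.10 (SE; edgeR FDR = 0.00859). It grew with each age, to 0.78 at 22 months, 1.02 at 24 months, 1.29 at 26 months and 1.40 at 28 months (FDR between 2.31e-14 and 8.13e-06). Medians were 88.8, 99.7, 114 and 133 CPM at these ages, and all 34 of the later mice lay above every 18 months-old mouse. Between neighboring ages, the mean rose by 14.8 CPM from 18 to 22 months (exact permutation test, two-sided, adjusted p = 0.00124 over 8 steps of Amy1 and Mpzl3) and by 16.1 CPM from 22 to 24 months (adjusted p = 0.0236, exact test). The steps of 21.4 CPM to 26 months and 9.71 CPM to 28 months did not pass (exact test, adjusted p = 0.0760 and 0.459). Against 18 months, the mean of the later ages was higher by 0.60 ± 0.08 on the log2 scale (SE, edgeR FDR = 9.94e-06), a comparison in which 8.53% of all genes passed. At 18 against 8 months the call sat close to the threshold. It was kept without mouse 3, 6 or 8 of 8 months or mouse 7 of 18 months, and it was lost without any other mouse, with an FDR of up to 0.0372 and a log2 fold change between 0.49 and 0.58. Amy1 has close relatives among the amylase genes, and the counting divided reads that fit several transcripts evenly.

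Mpzl3, on chromosome 9 from 45055186 to 45077436 (plus strand), encodes an immunoglobulin-domain membrane protein known in mice for its roles in skin and body fat. Its level was 5.07 to 10.01 CPM at 8 months (median 8.32) and 13.3 to 25.7 CPM at 18 months (median 17.0), so that the groups did not overlap. Its log2 fold change was 1.16 ± 0.21 (SE; edgeR FDR = 0.00472). At 22 months all 8 mice still lay above the highest 8 months-old mouse, with a median of 14.9 CPM and a log2 fold change of 1.04 that just missed the threshold (FDR = 0.0134). At 24 months the median was 9.94 CPM, 4 of 8 mice lay above the 8 months-old mice, and the log2 fold change was 0.47 (FDR = 0.217). Between 22 and 24 months the mean fell by 5.31 CPM (exact permutation test, two-sided, adjusted p = 0.0472). At 26 and 28 months the medians were 12.8 and 13.1 CPM and the log2 fold changes 0.91 (FDR = 0.001) and 0.87 (FDR = 0.000607). The highest median of Mpzl3 was thus at 18 months, yet the mean of the later ages did not differ from 18 months past the threshold (log2 difference -0.34 ± 0.16, SE, edgeR FDR = 0.117). Without mouse 3, 6 or 8 of 8 months or mouse 5 of 18 months, the FDR of the comparison of 18 with 8 months rose to at most 0.0167, and the log2 fold change stayed at 1.07 or more.

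Gm7609 is a transcribed pseudogene on chromosome 1 (85199613 to 85213786, plus strand) that lies inside the span of C130026I21Rik, a gene of the opposite strand at 84992690 to 85270566. It rested on few reads, 2 to 7 counts per mouse at 8 months and 7 to 39 at 18 months. Levels were 0.108 to 0.348 CPM at 8 months (median 0.217) and 0.453 to 2.37 CPM at 18 months (median 0.574), without overlap, for a log2 fold change of 1.97 ± 0.37 (SE; edgeR FDR = 0.00472). The later log2 fold changes were 2.05, 2.04, 1.95 and 1.84 at 22, 24, 26 and 28 months, and 32 of 34 later mice lay above the highest 8 months-old mouse. The call at 18 months was lost without mouse 3, 5, 6 or 7 of 8 months or mouse 1 or 6 of 18 months (FDR up to 0.0584). Gm7609 has near-identical copies in this region, and its counts are uncertain for that reason. When genes of low counts were included, C130026I21Rik was called too.

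**Figure D2:**
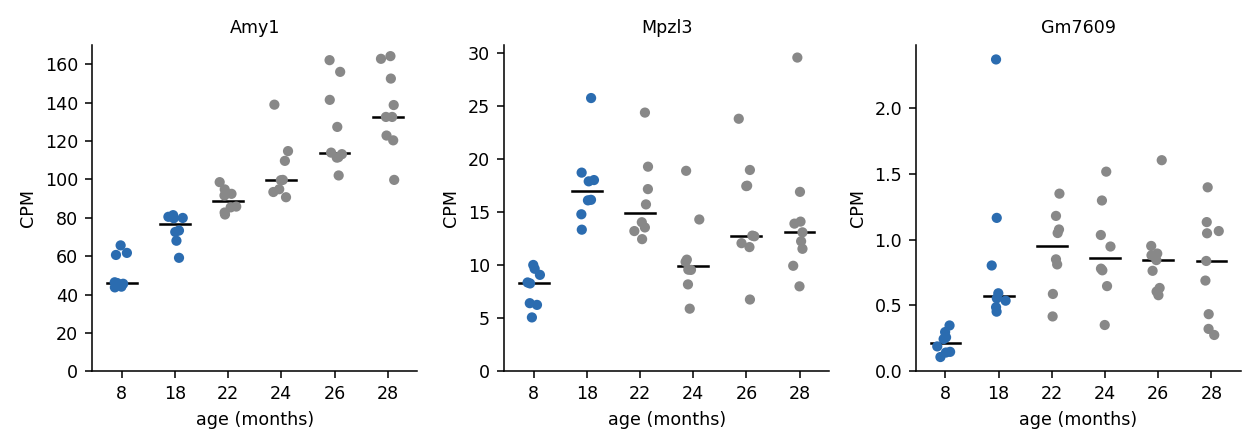
CPM of Amy1, Mpzl3 and Gm7609 (y axes) in each mouse at each age in months (x axes), with 1 point per mouse and a line at the median, the 2 compared ages in blue and the later ages in gray. The median of Amy1 climbed with each age, Mpzl3 was highest at 18 months, and the median of Gm7609 was 0.574 CPM at 18 months and between 0.838 and 0.950 CPM later.

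The 3 most significant genes of the comparison were lower at 18 months, and their groups did not overlap. A930016O22Rik, a transcript annotated as antisense on chromosome 7 (19417466 to 19421417, minus strand), had 3.78 to 10.9 CPM at 8 months (median 7.65) and 0.957 to 2.43 CPM at 18 months (median 1.32). Its log2 fold change was -2.31 ± 0.27 (SE; edgeR FDR = 2.09e-07). Ube2c, the ubiquitin-conjugating enzyme that serves the anaphase-promoting complex in mitosis, on chromosome 2 (164769898 to 164778822, plus strand), had 2.44 to 6.35 CPM at 8 months (median 4.77) and 0.638 to 2.01 CPM at 18 months (median 0.839). It fell by 2.18 on the log2 scale (SE 0.28; edgeR FDR = 2.73e-06). Rabep2, an effector of Rab proteins in endosome traffic, on chromosome 7 (126428759 to 126449245, plus strand), had 7.21 to 11.2 CPM at 8 months (median 9.43) and 3.10 to 5.11 CPM at 18 months (median 3.79). Its log2 fold change was -1.20 ± 0.16 (SE; edgeR FDR = 7.17e-06). Leaving out any of the 16 mice kept all 3 calls, with an FDR of at most 6.10e-05.

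At the later ages these 3 genes stood between their levels at 8 and at 18 months. For A930016O22Rik the median returned to 6.10 CPM at 22 months and was 3.25, 4.08 and 3.39 CPM at 24, 26 and 28 months, with log2 fold changes against 8 months of -0.34, -0.87, -0.86 and -0.90. In Ube2c the medians were 2.97, 2.32, 1.61 and 1.66 CPM and the log2 fold changes -0.63, -0.87, -1.27 and -1.21. For Rabep2 they were 6.65, 4.6, 5.82 and 6.14 CPM and -0.54, -0.69, -0.62 and -0.62. Only at 26 and 28 months did they pass FDR 0.01 against 8 months. Against 18 months, the mean of the later ages was higher by 1.57 for A930016O22Rik (edgeR FDR = 2.11e-05), 1.19 for Ube2c (FDR = 0.000958) and 0.58 for Rabep2 (FDR = 0.00242), all on the log2 scale. In this comparison 8.53% of all genes passed. A930016O22Rik was the single gene of all tested that differed between 22 and 18 months past FDR 0.01 (0.00795% of the genes, log2 difference 1.97 ± 0.27, SE, edgeR FDR = 2.07e-05). Both comparisons share the 18 months-old mice by which the 3 genes were chosen, and that choice favors a move back towards 8 months.

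All 3 share a feature that the comparison did not use: each has exons that overlap exons of an abundant muscle gene on the opposite strand. A930016O22Rik overlaps Ckm, muscle creatine kinase, by 451 bases, Ube2c overlaps Tnnc2, fast troponin C, by 592 bases, and Rabep2 overlaps Atp2a1, the calcium pump of fast fibers, by 763 bases. Over the 16 mice these partners averaged 25710, 9571 and 31830 CPM, so that the 3 genes had 1.73, 2.85 and 2.05 CPM for every 10000 CPM of the partner. The partners themselves hardly moved at 18 months, with log2 fold changes of 0.13 for Ckm, -0.05 for Tnnc2 and 0.05 for Atp2a1 (edgeR FDR = 0.9995 for each). The counting used the strand of the reads, according to the study's methods.

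Measured against its partner in the same mouse, each gene showed the same fall, which follows from partners that hardly moved. A930016O22Rik had 2.02 to 3.88 counts per 10000 counts of Ckm at 8 months (median 3.04) and 0.370 to 0.899 at 18 months (median 0.567). Ube2c had 2.84 to 5.74 counts per 10000 of Tnnc2 at 8 months (median 4.72) and 0.795 to 1.37 at 18 months (median 0.990). Rabep2 had 2.0 to 3.95 counts per 10000 of Atp2a1 (median 2.97) and then 1.02 to 1.64 (median 1.15). None of the 3 ratios overlapped between the ages, which restates the falls above and is not a separate result. At 22 months the medians were 2.25, 3.12 and 1.93. Of the 12586 genes tested, 11 (0.0874%) had at least 100 exonic bases in common with an opposite-strand gene of at least 1000 CPM. The other 8 of these, among them Gm15179 opposite the desmin gene Des, had 11.2 or more CPM per 10000 of the partner, partners of at most 3631 CPM, and log2 fold changes between -0.19 and 0.27, with no call. There were 17 such pairs before the filter of 1 CPM. The genes that it removed had at most 0.32 CPM per 10000 of the partner, such as Gm44646 opposite Mybpc2 (0.038, partner at 8193 CPM). An overlap of at least 100 exonic bases with any opposite-strand gene was found in 20.2% of the tested genes. The grouping by partner was made after the values were seen and carries no test. The part that reads of the opposite strand have in the fall of the 3 genes was not tested.

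The 3 genes also varied together in mice that the comparison did not use. In the 34 mice of the 4 later ages, each mouse's deviation from its age mean in log2(CPM + 0.5) was correlated between A930016O22Rik and Ube2c with Pearson r = 0.666 (Spearman rho = 0.609; 100000 permutations, adjusted p = 0.000107 and 0.00120 over 4 pairs). The pair A930016O22Rik and Rabep2 had r = 0.625 (rho = 0.554, permutation test, adjusted p = 0.000107 and 0.00124), and Ube2c and Rabep2 had r = 0.511 (rho = 0.418, permutation test, adjusted p = 0.00220 and 0.0150). When the 2 mice farthest from the median of the first gene of each pair were left out, r was 0.572, 0.434 and 0.324. The correlation over gene pairs in general was not examined. Both values of a pair come from the same library and share its preparation and scaling.

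**Figure D3:**
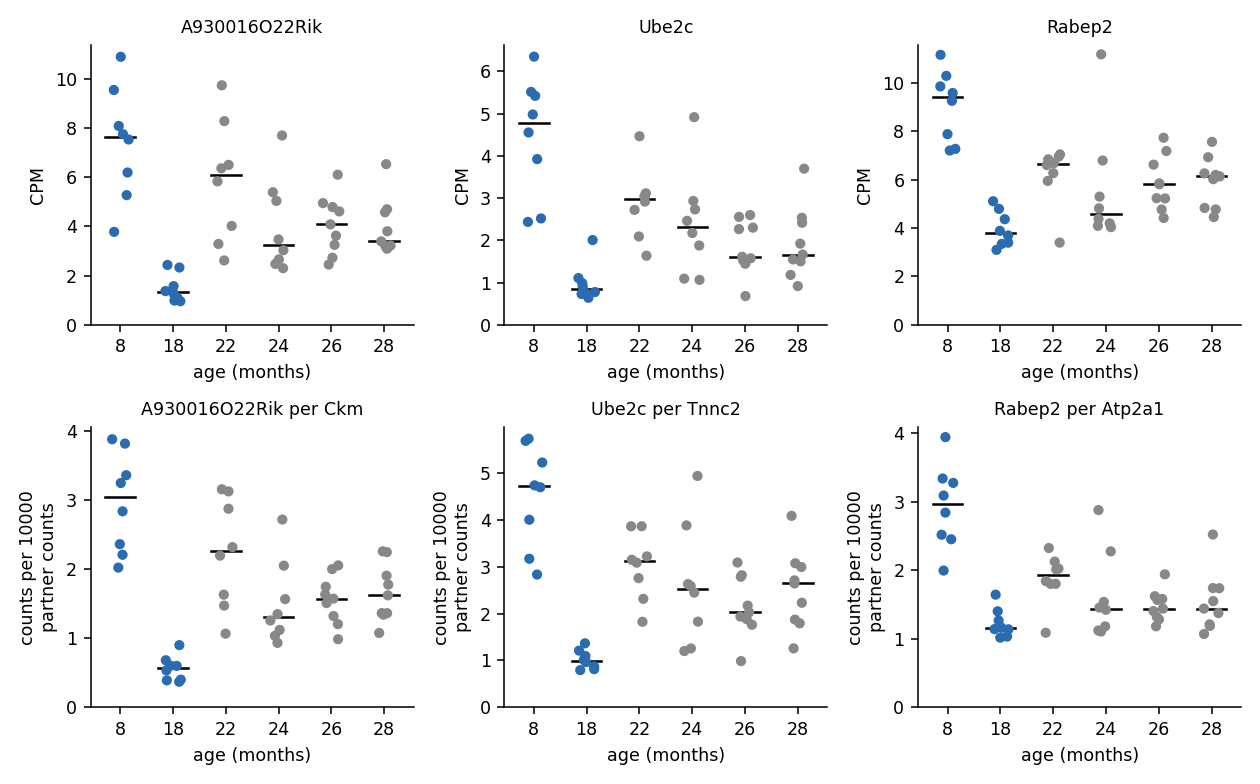
Upper panels, CPM of A930016O22Rik, Ube2c and Rabep2 in each mouse (y axes) by age in months (x axes), and lower panels, their counts per 10000 counts of the opposite-strand partners Ckm, Tnnc2 and Atp2a1, with medians as lines and the 2 compared ages in blue. In all 6 panels the 18 months-old mice lie below all 8 months-old mice, and the medians of the later ages lie between theirs.

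The fourth gene that was lower at 18 months, 9430073C21Rik, is likewise annotated as antisense (chromosome 11, 67195680 to 67199234, minus strand). It shares 237 exonic bases with Myh2, the myosin of IIA fibers, which averaged only 78.0 CPM. Levels were 0.705 to 3.54 CPM at 8 months (median 1.13) and 0.243 to 0.866 CPM at 18 months (median 0.417), for a log2 fold change of -1.54 ± 0.30 (SE; edgeR FDR = 0.00877). All but 1 of the 18 months-old mice lay below the lowest 8 months-old mouse. Later log2 fold changes were -0.38, -0.75, -0.82 and -0.70. The call stood only without mouse 2 or 7 of 8 months or mouse 7 of 18 months, and without mouse 3 of 8 months, which had the 3.54 CPM, the log2 fold change was -1.18 (FDR = 0.124).

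Irf7 and Ifit1 are interferon-stimulated genes. Irf7 encodes a transcription factor that amplifies the type I interferon response, and Ifit1 encodes a protein that binds foreign RNA. In this response, interferon at the cell surface activates transcription factors that bind a repeated GAAA element in the promoters of antiviral genes. The letters of that element were searched as GAAA, any 2 bases and GAAA, on both strands, in the 250 bases before the transcription start of the RefSeq promoter table (GRCm38.p6). They occur in 2.98% of 32851 promoter entries and in 3.46% of the 27025 genes with an entry. Of the 40 interferon-stimulated genes tested, 30 have an entry and 13 hold the element. It is shown for those among the 8 list members of lowest p in which it was found, because the called genes belong to this response. Capitals mark the matches that lie whole within the stretch shown, read as TTTC on the opposite strand, and matches may overlap. Ifit3 has 2 matches in its 250 bases, of which 1 is in the stretch shown.
Ifit1 (chr19:34640779-34640838, plus strand): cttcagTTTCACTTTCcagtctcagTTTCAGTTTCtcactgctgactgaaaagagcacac
Isg15 (chr4:156200850-156200909, minus strand): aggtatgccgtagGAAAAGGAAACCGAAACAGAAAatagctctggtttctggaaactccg
Oas1a (chr5:120907526-120907564, minus strand): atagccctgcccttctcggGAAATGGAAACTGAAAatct
Ifit3 (chr19:34583382-34583441, plus strand): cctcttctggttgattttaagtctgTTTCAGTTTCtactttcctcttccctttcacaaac
In Irf7, Ifi44 and Oasl2 these letters are not in the window. Oas2, the eighth of these members, has no entry.

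Both calls came mainly from 2 mice. Irf7 had 2.71 to 5.02 CPM at 8 months (median 3.24) and 2.40 to 68.7 CPM at 18 months (median 5.72). Mouse 6 of 18 months had 68.7 CPM and mouse 7 had 31.6 CPM, whereas the other 6 mice of that age had 2.40 to 6.33 CPM, 4 of them above the highest 8 months-old mouse. The log2 fold change was 2.25 ± 0.43 (SE; edgeR FDR = 0.00719), and without mice 6 and 7 it was 0.52 (FDR = 1.0). Ifit1 had 2.14 to 3.80 CPM at 8 months (median 2.70) and 2.71 to 32.8 CPM at 18 months (median 5.05), with 32.8 CPM in mouse 6 and 9.71 CPM in mouse 7. Its log2 fold change was 1.62 ± 0.30 (SE; edgeR FDR = 0.00472), and 0.62 without both mice (FDR = 0.686). Without mouse 6 alone the log2 fold changes were 1.38 for Irf7 (FDR = 0.253) and 0.88 for Ifit1 (FDR = 0.0584). Without mouse 7 alone Irf7 had an FDR of 0.0308 and Ifit1 kept its call. Of the mice of 8 months, leaving out any but mouse 4 lost the call of Irf7 (FDR up to 0.0209), and leaving out mouse 1, 3, 5, 6 or 8 lost that of Ifit1 (FDR up to 0.0161).

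Neither gene was called against 8 months at any later age. For Irf7 the later medians were 6.39, 5.74, 5.72 and 5.15 CPM at 22, 24, 26 and 28 months and the log2 fold changes between 0.85 and 0.92. At each of these ages 6 mice lay above the highest 8 months-old mouse in Irf7. Ifit1 had later medians of 4.63, 4.71, 4.20 and 3.80 CPM and log2 fold changes between 0.50 and 0.74. Its level lay above that of every 8 months-old mouse in 6, 6, 5 and 5 mice at these later ages, and in 6 of 8 at 18 months. The highest later mouse had 15.0 CPM of Irf7, below both mice 6 and 7 of 18 months. The mean of the later ages was lower than 18 months, with a log2 difference of -1.38 ± 0.30 in Irf7 (SE; edgeR FDR = 0.00141) and -0.998 ± 0.21 in Ifit1 (FDR = 0.00138), comparisons that include the same 2 mice. In the 34 later mice, the deviations of Irf7 and Ifit1 from their age means were correlated (r = 0.606, rho = 0.547; permutation test, adjusted p = 0.000107 and 0.00124; leaving out the farthest 2 gave r = 0.491).

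The other interferon-stimulated genes leaned the same way in these mice. Of its 40 tested genes, the 2 above were called, 21 had an unadjusted p under 0.05, all higher, and the median log2 fold change was 0.38, against -0.00172 over all genes. Mouse 6 of 18 months had the highest level of the 16 mice in 37 of the 40 genes, and mouse 7 the next highest in 26. Over all genes tested, mouse 6 was the highest in 8.84%. In mouse 6, 31 of the 40 genes were at least 2 times the 8 months median, and in mouse 7, 12 were. Ifi44, a protein induced by interferon, had 15.3 CPM in mouse 6 and 2.51 CPM in mouse 7, against at most 0.858 CPM in any 8 months-old mouse. Isg15, the ubiquitin-like antiviral modifier, had 13.2 and 4.10 CPM against at most 1.83. Ifit3 had 51.9 and 12.2 CPM against at most 7.35. Among GTPases that interferon induces, Iigp1 had 33.3 CPM in mouse 6 against at most 17.0 CPM at 8 months, and Gbp2 had 24.5 against at most 13.1 CPM. The chemokine Cxcl10 had 0.486 CPM in mouse 6, below its median of 0.867 CPM at 8 months. Without mice 6 and 7 the median of the list was 0.0174, 21 of 40 genes were positive, and none was called. The summed level of the list was 249 to 349 CPM at 8 months (median 292). At 18 months it was 864 CPM in mouse 6, 431 CPM in mouse 7 and 254 to 352 CPM in the other 6 mice. No later mouse exceeded 413 CPM. The median log2 fold change of the list against 8 months was 0.22, 0.19, -0.02 and 0.00575 at 22, 24, 26 and 28 months.

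**Figure D4:**
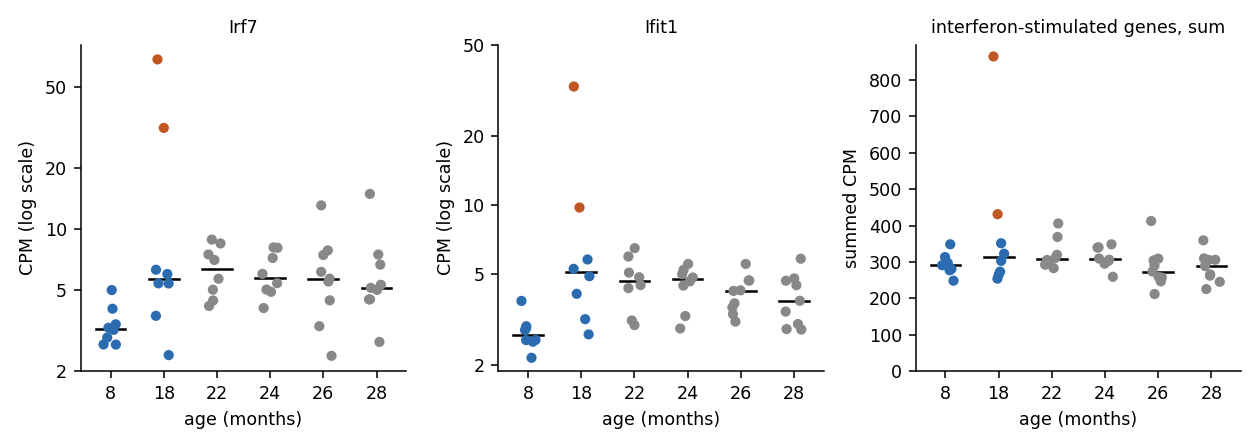
CPM of Irf7 and Ifit1 (y axes, log scale) and summed CPM of the 40 interferon-stimulated genes (y axis, linear scale) in each mouse by age in months (x axes), with medians as lines and mice 6 and 7 of 18 months in orange. Mouse 6 of 18 months stands at 68.7 CPM of Irf7, 32.8 CPM of Ifit1 and 864 CPM of the list, above all other 49 mice.

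Antigen presentation genes and macrophage markers were also highest in mouse 6, and mouse 5 of 18 months ranked next in both sums, ahead of mouse 7. Of 16 antigen presentation genes, 0 were called by edgeR at FDR 0.01 (1 at an unadjusted p under 0.05), the median log2 fold change was 0.27, and it was -0.0032 without mice 6 and 7. The summed antigen presentation level was 403 to 681 CPM at 8 months, and mice 6, 5 and 7 of 18 months had 1002, 771 and 693 CPM. Of 16 macrophage gene identifiers, 0 were called (1 at an unadjusted p under 0.05), the median was 0.26, and without both mice it was 0.05. Mouse 6 had the highest level of the 16 mice in 15 of the 16 macrophage genes, against 8.84% of all genes tested. Among them was Cd163, a scavenger receptor of resident macrophages, with 58.6 CPM against a mean of 22.5 CPM at 8 months. The summed macrophage level was 202 to 354 CPM at 8 months and 227 to 513 CPM at 18 months, where mice 6, 5 and 7 had 513, 413 and 405 CPM. At 22, 24, 26 and 28 months the macrophage median against 8 months was 0.33, 0.326, 0.662 and 0.653. Of its genes, 0, 0, 7 and 11 were called higher. At 26 months 18.4% of all genes were called in either direction, and at 28 months 21% were called higher. The antigen presentation median was 0.333, 0.309, 0.154 and 0.0334 at these later ages, with 0 called at each. Of the lymphocyte markers, Jchain alone passed the filter. The 14 others averaged under 0.4 CPM at both ages. The part of macrophages in the interferon result was not tested.

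Jchain, which joins the immunoglobulins that plasma cells secrete, had 0.333 to 1.63 CPM at 8 months (median 0.513) and 1.11 to 5.16 CPM at 18 months (median 2.88). Its log2 fold change of 2.12 ± 0.59 did not pass (SE; edgeR FDR = 0.342). At 22, 24, 26 and 28 months it was 2.48 (FDR = 0.0345), 2.85 (FDR = 0.00256), 3.34 (FDR = 3.61e-05) and 2.71 (FDR = 0.000129). Kcnab1, a beta subunit of potassium channels, was the gene nearest to the threshold from outside. It had 6.25 to 18.9 CPM at 8 months (median 13.6) and 14.1 to 48.2 CPM at 18 months (median 25.3), with a log2 fold change of 1.07 ± 0.23 (SE; edgeR FDR = 0.0276). Its later log2 fold changes were 1.21, 1.18 and 0.93 at 22, 24 and 26 months, each past FDR 0.01, and 0.41 at 28 months (FDR = 0.114). Both genes were named after their values were seen.

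In 10 genes, 0.0795% of those tested, the levels of the 18 months-old and the 8 months-old mice did not overlap (6 higher, 0.0477%, and 4 lower, 0.0318%), and 5 of these had been called. The other 5, listed here after their values were seen, were Cpne2, Zfp641, Mvp and Enkur, higher at 18 months, and Nrep, lower. Nrep, known from regenerating neurons and muscle, had 101 to 137 CPM at 8 months (median 108) and 40.6 to 93.0 CPM at 18 months (median 76.6). Its log2 fold change of -0.62 ± 0.31 did not pass (SE; edgeR FDR = 0.9995), but the later medians were 54.1, 43.2, 20.6 and 11.5 CPM, and it was called at 26 months (log2 fold change -2.31, FDR = 1.85e-06) and at 28 months (-2.76, FDR = 1.80e-08). Cpne2, a calcium-dependent membrane-binding protein, had 7.90 to 13.6 CPM at 8 months and 14.1 to 19.9 CPM at 18 months, a log2 fold change of 0.70 ± 0.24 (SE; FDR = 0.780). It was called at 26 months (1.14, FDR = 0.000338) and 28 months (1.29, FDR = 1.64e-05). Mvp, the major vault protein, had 36.1 to 41.4 CPM and 41.9 to 49.8 CPM, a small log2 difference of 0.20. Enkur, an adaptor of calcium channels, had medians of 0.395 and 1.11 CPM at 8 and 18 months and 0.372 to 0.650 CPM at the later ages.

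A change of at least 2-fold was fitted for 40 genes (0.318%), 35 higher and 5 lower at 18 months. Among the 35 higher genes, 9 belong to the interferon-stimulated list, 21 averaged under 1 CPM at 8 months, and 4 were called. Mouse 6 of 18 months had the highest level of the 16 mice in 27 of them, against 8.84% of all genes tested. Genes chosen as higher at 18 months favor mice of that age as the highest, and in all 35 the highest mouse was one of 18 months. One gene of higher level was Cish, an inhibitor of cytokine and growth hormone signaling, with 1.3 to 25.2 CPM at 8 months (median 8.72) and 4.44 to 83.7 CPM at 18 months (median 35.7). Its groups overlapped widely, and its log2 fold change of 1.83 ± 0.57 did not pass (SE; edgeR FDR = 0.522). At the later ages the medians of Cish were 11.1, 9.04, 14.0 and 13.5 CPM.

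Of the 35 gene lists examined, 22 pathways and 13 sets of cell markers, the interferon-stimulated list was the one with called members. The slow fibre markers were lowest, with 9 of 10 genes negative and a median log2 fold change of -0.30 (0 called, and 0 at an unadjusted p under 0.05). Their summed level was 491 to 2606 CPM at 8 months (median 1469) and 672 to 2049 CPM at 18 months (median 1094), so that the 18 months range lay inside that of 8 months. Myh7, the slow myosin, averaged 254 CPM at 8 months and 200 CPM at 18 months. Immediate early genes had a median of -0.23 (17 tested, 0 called, 2 at an unadjusted p under 0.05), with Nr4a1 at 252 and 174 CPM (log2 fold change -0.54, edgeR FDR = 0.9995). Smooth muscle and pericyte markers had a median of -0.21, Schwann cell markers -0.20 and collagens with their maturation enzymes -0.15, with 5 of 29 collagen genes positive and 0 of these called.

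Several lists with many called members at later ages had none at 18 months. For collagens the median log2 fold change against 8 months was -0.15 at 18 months and -0.30, -0.55, -0.68 and -0.77 at 22, 24, 26 and 28 months, and the number of lower members called was 0, 0, 5, 19 and 21, where 0.294%, 8.54% and 18.7% of all genes were called lower at 24, 26 and 28 months. Oxidative phosphorylation genes had a median of -0.07 at 18 months, with 7 of 78 positive (16 without mice 6 and 7), and -0.48 at 28 months. Of the 78 members, 0 and 63 were called lower at 18 and 28 months. Their summed level was 23610 to 41370 CPM at 8 months (median 28930) and 24490 to 33310 CPM at 18 months (median 28600). Mouse 3 of 8 months had 41369 CPM, against 30674 CPM in the next highest mouse of that age. The median of the list without mouse 3 was not examined. The atrophy ubiquitin ligases and FoxO targets had a median of 0.09 at 18 months, with 16 of 19 positive. At 28 months their median was 0.86, and 15 of 19 were called higher, against 21% of all genes. Markers of denervated fibre had a median of 0.15 at 18 months (9 of 11 positive, 0 called) and 1.31 at 28 months (8 called). Musk, a receptor kinase of the neuromuscular junction, had a log2 fold change of 0.37 and Runx1, a factor induced by denervation, of 0.43 at 18 months (edgeR FDR = 0.9995 for both). The cell cycle list, to which Ube2c does not belong, had a median of 0.06 with 0 of 16 called. At an unadjusted p under 0.05 there were 0 members of the collagen, oxidative phosphorylation, atrophy and denervated fibre lists and 1 of the cell cycle list, and DESeq2 called none of these members either.

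**Figure D5:**
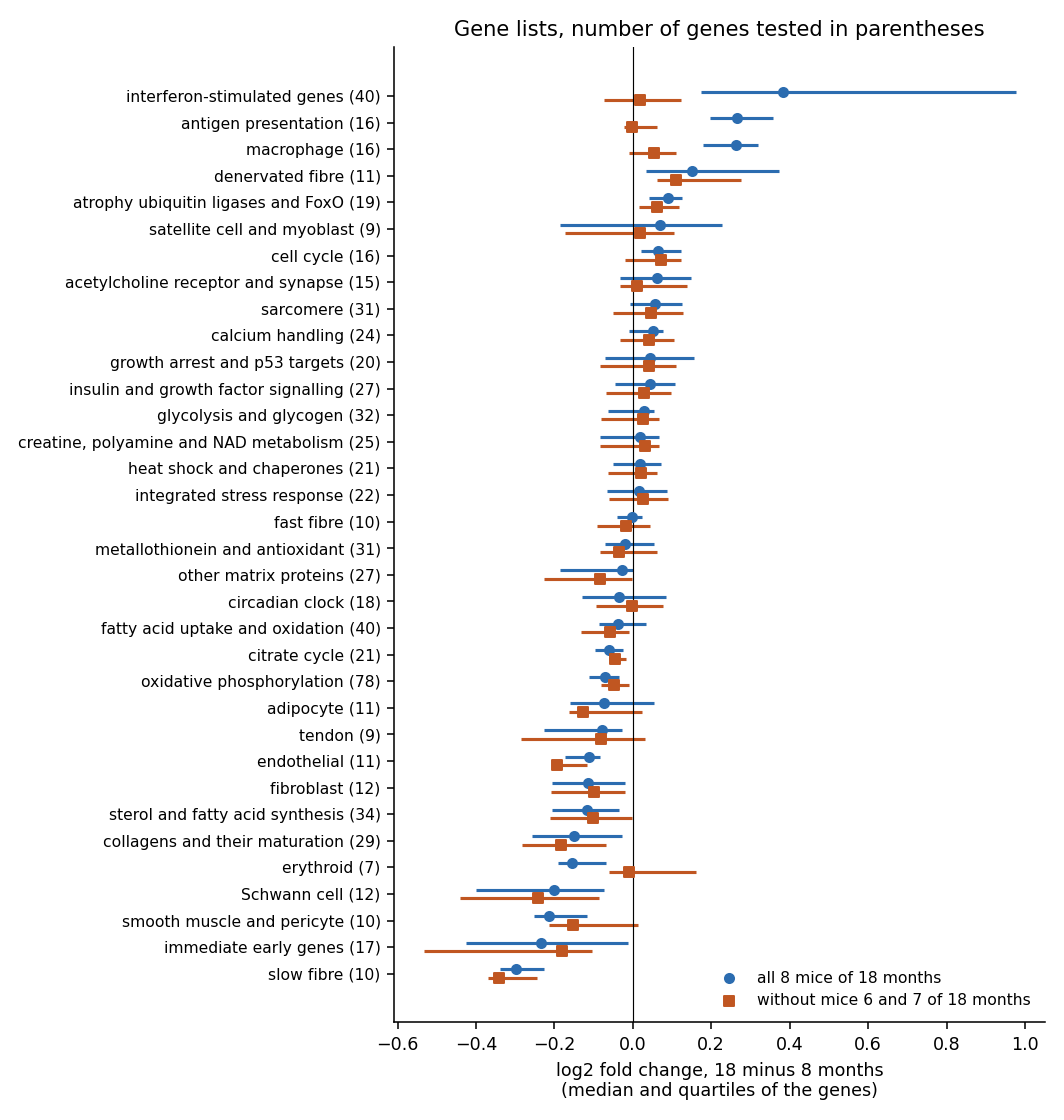
Median (point) and quartiles (bar) of the log2 fold change, 18 months minus 8 months (x axis), over the tested genes of each list with more than 1 of them (y axis), with all 8 mice of 18 months in blue and without mice 6 and 7 in orange. The interferon-stimulated median moves from 0.38 to 0.0174 without these mice, and those of antigen presentation and macrophage markers from 0.27 and 0.26 to near 0.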

How the data were processed

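Stranded mRNA libraries of 50 mice, 1 per mouse, were read from both ends. The authors trimmed reads with cutadapt 1.9.1 and assigned them with kallisto 0.43.1 (versions from the submitters' processing notes), strand included, to protein-coding transcripts of Ensembl release 92 on GRCm38. The counts, as deposited, are the authors' sums over the transcripts of a gene, with a read that fits several transcripts divided evenly. The deposited TPM values were scaled by the authors for transcript length and library size, and were used here for the PCA, as log2(TPM + 1) of the 12452 genes that reached 1 TPM in 8 or more mice, with genes and mice centered, and for alternatives. Gene positions came from GENCODE vM21 (GRCm38), where 12581 of 12586 tested genes were found and 534 are not classed as protein coding. Among the 534 are A930016O22Rik, 9430073C21Rik and Gm7609. This differs from the protein-coding reference that the authors describe, and the reason was not examined.

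The test of the counts was the quasi-likelihood test of edgeR 4.0.16 (R 4.3.3), with scaling by TMM, a single model of 6 ages and Benjamini-Hochberg adjustment over all genes tested (FDR 0.01). CPM are scaled to 1000000 counts of the tested genes after TMM. Any pair of libraries of 1 age differed by more than counting noise (variance at least 9.4 times the counting variance at 8 months and 10.5 times at 18 months). No library was thus a copy of another of its age. The check cannot tell 2 animals from 2 preparations of 1 animal. That replicates are different animals is stated by the study. A gene was called lasting when it passed with the same sign against 8 months at all 4 later ages, partly kept when it did so at some, not kept at none, and apart at 18 months when it was not kept and the mean of the later ages differed from 18 months in the opposite direction (FDR 0.01). For single values, exact permutation tests were used, two-sided (Python 3.11.15, scipy 1.17.1). Alternatives were other scalings and filters, DESeq2 1.42.0, edgeR's likelihood ratio test, limma 3.58.1 on log2 TPM, a fit of 2 ages, a block for the replicate number, and leaving out each mouse. The procedure was tested on simulated counts at FDR 0.01. It called 52 of 100 genes changed by 0.5 and 87 of 100 genes changed by 1 on the log2 scale. Of 12386 unchanged genes, 4 were called. Small changes between 8 and 18 months can therefore have been missed.

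Genes were named by rule: the 12 largest changes each way past FDR 0.01 with at least 2 CPM and no predicted model, up to 3 called members per list, and lasting genes. The comparison and the gene lists were chosen with earlier results of these data known.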

Additional observations from a re-analysis of the deposited data

Results flagged for a closer look

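In groups of 8 or 9 mice, 15 of 62 values tested stood apart from the rest of their age by Dixon's criterion. Most of the values that stood apart are levels of the 9 genes chosen from these same mice. Their number therefore cannot be set against chance. At 18 months the values apart were the highest mice of Irf7 (68.7 CPM), Ifit1 (32.8 CPM), the summed interferon-stimulated list (864 CPM) and Gm7609 (2.37 CPM), all in mouse 6. Also at 18 months, mouse 2 stood apart in Ube2c (2.01 CPM) and in its median deviation from the other mice (0.274 on the log2 scale), mouse 5 in Mpzl3 (25.7 CPM), and 1 mouse in its total counts (21270000, rounded). At 8 months mouse 3 stood apart in 9430073C21Rik (3.54 CPM). At later ages the lowest mouse of Rabep2 at 22 months (3.40 CPM) and the highest mice of Rabep2 at 24 months (11.2 CPM), Gm7609 at 26 months (1.603 CPM), and Irf7 (15.0 CPM), A930016O22Rik (6.53 CPM) and Mpzl3 (29.5 CPM) at 28 months did so.

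The change from 8 to 18 months differed from that to the later ages in 6 of the 9 genes, by edgeR's test of the mean of the later ages against 18 months. On the log2 scale this difference was 1.57 in A930016O22Rik, 1.19 in Ube2c and 0.58 in Rabep2, which rose again, 0.60 in Amy1, which rose further, and -1.38 in Irf7 and -0.998 in Ifit1, whose 18 months mean rests on mice 6 and 7. Of all genes tested, 8.53% passed in the same comparison. It uses the 18 months-old mice by which the 9 genes were chosen, which favors a move back.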

How the results depend on the processing

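The number of genes past FDR 0.01 (9) ranged from 3 to 11 over the alternatives. Direction did not change in any of the 9 genes under any alternative in which it was tested. A930016O22Rik and Rabep2 kept their calls in all 29 alternatives, and Ube2c in the 28 in which it was tested.

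Other scalings gave 9 genes each. With limma on log2(TPM + 1) there were 4 genes, 1 of them higher, and with log2(TPM + 0.1) 3 genes, 0 higher; lasting, not kept and apart at 18 months were then 0. The fit of the 2 ages alone gave 4 genes, 1 higher, 0 lasting and 0 not kept. A filter of 5 CPM left 2 lower genes and 1 lasting gene, no filter gave 8 genes and 1 lasting, and the likelihood ratio test gave 11, with 4 apart at 18 months. With the replicate number as a block there were 6 genes, 3 of them higher, and 0 not kept or apart at 18 months; the numbers do not pair mice, since correlations of same-numbered mice were -0.359 to 0.207 and 0 of 8 correlated best with its own number.

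Without each mouse in turn the genes past the threshold numbered 4 to 8, those higher 1 to 4, lower 3 to 4, lasting 0 to 2, partly kept 3 to 5, not kept 0 to 2 and apart 0 to 2. Without mice 6 and 7 of 18 months together, an alternative chosen after seeing the data, there were 4 genes, 1 of them higher, 1 lasting, 0 not kept and 0 apart, and the antigen presentation median turned to -0.0032; Mpzl3 (FDR 0.0166), Gm7609 (FDR 0.103) and 9430073C21Rik (FDR 0.0252) then missed the threshold besides Irf7 and Ifit1. The difference in spread between mice turned to 0.00448 with log2(TPM + 1) and lay between -0.0220 and 0.0107 without each mouse, never past the threshold (exact permutation p of 0.350 or more). PC1 did not separate the ages under any alternative. The cause of these differences was not tested. The precision is limited by 8 mice per age, and by 39 counts or fewer per mouse of Gm7609 at these ages.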
